A study of Mus musculus with 6 samples.

Results

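The genes described here are the 5 subunits of NF-kB (*Nfkb1*, *Nfkb2*, *Rel*, *Rela* and *Relb*) and 5 of its inhibitors (*Nfkbia*, *Nfkbib*, *Nfkbie*, *Nfkbiz* and *Tnfaip3*). They were found by gene symbol, 10 of 55335 genes in the deposited table. The search used no measured value, but the set was chosen with earlier results of these data known. The 6 RNA-seq libraries came from bone marrow-derived macrophages (BMDMs) of *Cd177* WT mice, grown for 7 days with M-CSF, the macrophage growth factor, at 25 ng/ml. In 3 libraries the BMDMs had been co-cultured for 24 h with neutrophils of *Cd177* WT mice, and in 3 with neutrophils of *Cd177* KO mice. In both groups the neutrophils were isolated by magnetic sorting from the injured spinal cord at 3 days post-injury (dpi), and the BMDMs were recovered as Ly6G- cells by flow sorting. The mice of the study were adult male C57BL/6 animals, and the KO mice were bought as a *Cd177*-/- line. Below, WT and KO name the genotype of the neutrophils. No BMDMs without neutrophils were analysed here, so the values show a difference between the co-cultures and not the effect of adding neutrophils. Neither the labels nor the methods say whether replicates were separate cultures or animals, so p-values measure the spread between these libraries, which may be technical.

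NF-kB is a family of dimeric transcription factors that drives much of the inflammatory response of macrophages. In resting cells the dimers are held in the cytoplasm by IkB proteins, which are phosphorylated by the IkB kinase complex after stimulation and then degraded, so that the dimers enter the nucleus. *Nfkbia* and *Tnfaip3* are themselves classical NF-kB target genes and thereby close negative feedback loops. The activity of NF-kB is set largely at the protein level, and RNA-seq of the subunits does not measure it.

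*Cd177* had 0.544, 0.309 and 0.521 FPKM (fragments scaled to transcript length and library size) in the WT libraries. In the KO libraries it had 1.79, 1.84 and 2.28 FPKM. It is among the neutrophil markers counted below, while the BMDMs were of WT genotype in both groups. Which cells these transcripts came from was not tested, so the values do not show whether the neutrophils lacked *Cd177*. Since *Cd177* was higher with neutrophils labelled KO, directions are given between libraries as labelled. Of 14 neutrophil markers 11 were tested, of which 10 were higher and 1 lower in the KO libraries, and their summed level was 189 to 250.4 FPKM in the WT and 542 to 556 FPKM in the KO libraries. The levels of *Ly6g*, whose protein was used to sort, were 0 in the WT libraries and 0.403 to 0.660 FPKM in the KO libraries. Of 8 B cell markers 3 were tested and all 3 were higher, the list summing to 1.41 to 2.28 FPKM in the WT and 14.7 to 16.9 FPKM in the KO libraries, with *Blk* and *Cd79a* at or near 0. Of 8 T and NK cell markers only *Cd4* was tested and was higher, and *Cd3e* and *Cd3d* were at or near 0. Of 11 spinal cord markers 2 were tested and did not pass, and *Aqp4*, *Snap25*, *Mog* and *Olig2* were listed at 0 in every library. The list summed to 5.25 to 6.86 FPKM in the WT and 6.58 to 7.98 FPKM in the KO libraries. Most of this was *Mbp*, with 4.47 to 5.79 FPKM in the WT and 5.58 to 6.89 FPKM in the KO libraries. The part of these markers in the falls of *Nfkbia*, *Nfkbib* and *Tnfaip3* described below was not tested. The macrophage markers summed to 8755 to 10856 FPKM in the WT and 8805 to 9745 FPKM in the KO libraries, and 2 of 10 were higher and 3 lower. Most of the sum was *Lyz2* and *Ctss*, with means of 4922 and 2256 FPKM in WT and 6144 and 1581 FPKM in KO. *Adgre1* and *Mertk* were the higher ones, and *Ctss*, *Cd14* and *Fcgr1* the lower ones. Mean *Cd14* was 1010 FPKM in WT and 99.4 FPKM in KO, and mean *Fcgr1* 121 and 33.8 FPKM. The libraries held 20631 to 22571 genes above 0 and about 17600000 to 20200000 fragments each, estimated from the steps between low values. Calls are made by limma at an adjusted p-value under 0.05. In a principal component analysis of all tested genes, replicate 3 of each group stood apart on the second component, and without both of these libraries *Nfkbia*, *Nfkbib* and *Tnfaip3* were still lower and *Relb* and *Rela* passed as well, with log2 changes of -0.34 and 0.24 (limma adjusted p = 0.0192 and 0.039).

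Promoter sequences are shown for the inhibitors whose transcripts fell and for a pair of subunits, since members differ in whether they hold a kappaB site at their start. The sequences are from RefSeq (GRCm38.p6), each 300 bases from 250 before to 50 after a transcript start, written 5′ to 3′ on the strand of the gene. The table held promoters of 7 of the 10 members and had none for *Nfkb1*, *Relb* and *Nfkbiz*. Capitals mark matches to the 10-base kappaB consensus, searched on both strands. *Nfkbia* encodes IkB-alpha, *Tnfaip3* the ubiquitin-editing enzyme A20 and *Nfkbib* IkB-beta. *Rel* encodes c-Rel and *Rela* the subunit RelA.
Nfkbia, chr12:55492598-55492897, minus strand: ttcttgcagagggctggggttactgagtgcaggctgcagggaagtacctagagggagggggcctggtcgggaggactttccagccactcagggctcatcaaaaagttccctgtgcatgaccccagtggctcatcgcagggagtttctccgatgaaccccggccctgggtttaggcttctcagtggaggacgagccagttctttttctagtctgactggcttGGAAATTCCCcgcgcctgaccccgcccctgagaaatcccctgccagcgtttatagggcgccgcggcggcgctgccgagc
Tnfaip3, chr10:19015361-19015660, minus strand: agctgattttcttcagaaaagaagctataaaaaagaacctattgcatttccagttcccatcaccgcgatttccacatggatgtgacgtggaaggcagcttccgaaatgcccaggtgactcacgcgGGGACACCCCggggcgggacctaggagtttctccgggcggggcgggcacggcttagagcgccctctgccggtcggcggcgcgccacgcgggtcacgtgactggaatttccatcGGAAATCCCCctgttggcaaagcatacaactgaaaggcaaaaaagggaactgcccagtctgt
Nfkbib, chr7:28766595-28766894, minus strand: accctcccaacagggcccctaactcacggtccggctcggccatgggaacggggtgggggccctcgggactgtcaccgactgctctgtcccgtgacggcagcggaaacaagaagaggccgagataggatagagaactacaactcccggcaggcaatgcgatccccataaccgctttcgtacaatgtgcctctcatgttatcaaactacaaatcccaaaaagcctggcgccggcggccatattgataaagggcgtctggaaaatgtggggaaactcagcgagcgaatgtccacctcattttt
Rel, chr11:23770920-23771219, minus strand: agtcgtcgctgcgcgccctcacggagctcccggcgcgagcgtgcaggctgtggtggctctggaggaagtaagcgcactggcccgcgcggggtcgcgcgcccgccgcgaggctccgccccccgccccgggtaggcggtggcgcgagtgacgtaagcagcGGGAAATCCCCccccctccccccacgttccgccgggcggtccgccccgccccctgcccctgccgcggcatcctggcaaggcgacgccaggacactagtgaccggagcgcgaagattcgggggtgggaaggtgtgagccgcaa
Rela, chr19:5637291-5637590, plus strand: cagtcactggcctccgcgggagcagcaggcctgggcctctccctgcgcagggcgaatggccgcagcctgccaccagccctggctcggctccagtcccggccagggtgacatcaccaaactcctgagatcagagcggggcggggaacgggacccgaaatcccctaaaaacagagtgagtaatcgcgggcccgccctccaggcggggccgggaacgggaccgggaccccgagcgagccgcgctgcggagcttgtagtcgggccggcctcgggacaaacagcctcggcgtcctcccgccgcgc

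The consensus was matched in at least 1 promoter of 5 of these 7 genes (*Nfkb2*, *Rel*, *Nfkbia*, *Nfkbie* and *Tnfaip3*), whereas 4.51% of all 32851 promoters of the same length held a match and 5.14% of all 27025 genes did so in any promoter. In *Nfkbia* the match began at position -29 from the start, and in the *Tnfaip3* promoter shown the matches began at -125 and -12. The other *Tnfaip3* promoter, chr10:19011914-19012213, held no match. In *Rel* a pair of overlapping matches began at -92 and -91, and in *Nfkbie* the match began at -106. The matches of *Nfkb2* nearest to one of its starts began at -11 and 11. The promoters of *Nfkbib* and *Rela* held no match in this window, which says nothing of sites elsewhere. The matches did not sort the members by their change between the groups, because *Nfkbib* fell without one while *Rel*, *Nfkb2* and *Nfkbie* held one and did not pass the test described below.

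**Figure D1:**
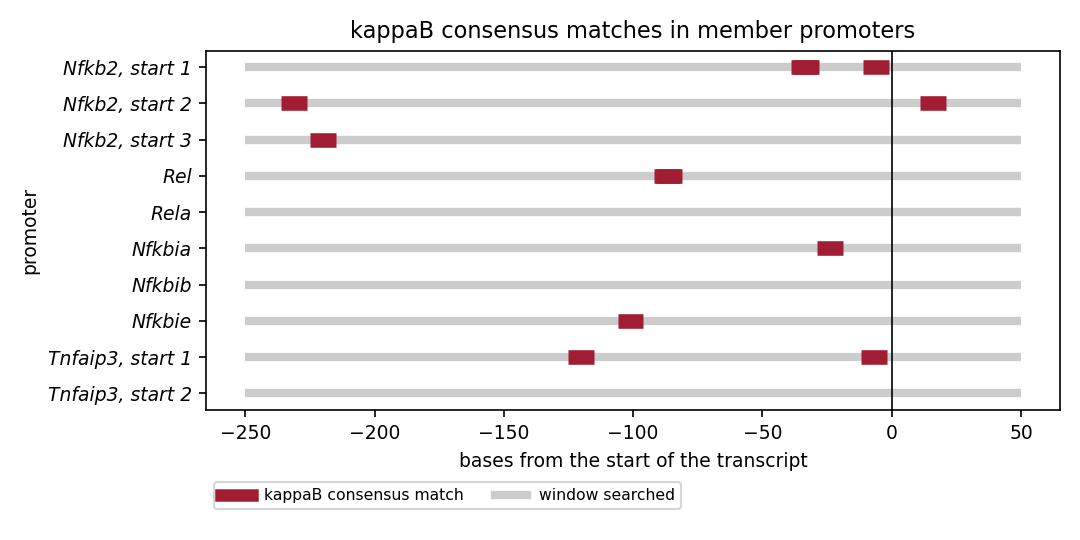
Position of kappaB consensus matches in the promoters of the 7 members with a RefSeq promoter, in bases from the transcript start (vertical line), with the searched window of 250 bases before to 50 after it in grey. Start 1 is the most upstream start of a gene with several. *Rela*, *Nfkbib* and the downstream start of *Tnfaip3* have no match in the window. The match of *Nfkbia*, the nearer match of *Tnfaip3* and the matches of *Nfkb2* at -11 and 11 lie within 30 bases of a start.

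The members were expressed in all 6 libraries, with levels between 3.23 and 77.4 FPKM, a scale on which levels can be compared between genes. With WT neutrophils *Nfkbia* had the highest level, 72.2 ± 4.57 FPKM (SD, n = 3), followed by *Rela* with 30.1 ± 2.03 FPKM and *Nfkbib* with 19.8 ± 0.693 FPKM. *Tnfaip3* and *Nfkb2* followed with 15.8 ± 3.77 and 15.8 ± 1.61 FPKM, then *Relb* with 10.7 ± 0.504 FPKM and *Nfkb1* with 8.33 ± 1.70 FPKM. At the low end stood *Nfkbiz* with 6.38 ± 0.724 FPKM, *Nfkbie* with 5.58 ± 0.515 FPKM and *Rel* with 3.96 ± 0.644 FPKM. Among neighbours in this order, the ranges over libraries overlapped between *Nfkbib* and *Tnfaip3*, *Tnfaip3* and *Nfkb2*, *Nfkb1* and *Nfkbiz*, and *Nfkbiz* and *Nfkbie*, so their order is not resolved.
With KO neutrophils the order was different at the top. *Nfkbia* and *Rela* overlapped, at 35.1 ± 1.04 and 35.1 ± 2.96 FPKM (SD, n = 3 each), and *Nfkb2* stood above *Nfkbib* without overlap, at 16.9 ± 0.769 against 12.4 ± 0.656 FPKM. *Tnfaip3* moved from the fourth to the seventh place, at 7.16 ± 1.10 FPKM. The low end was again formed by *Nfkbiz*, *Nfkbie* and *Rel*, whose ranges overlapped from one to the next, as did those of *Relb* and *Nfkb1*.

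**Figure D2:**
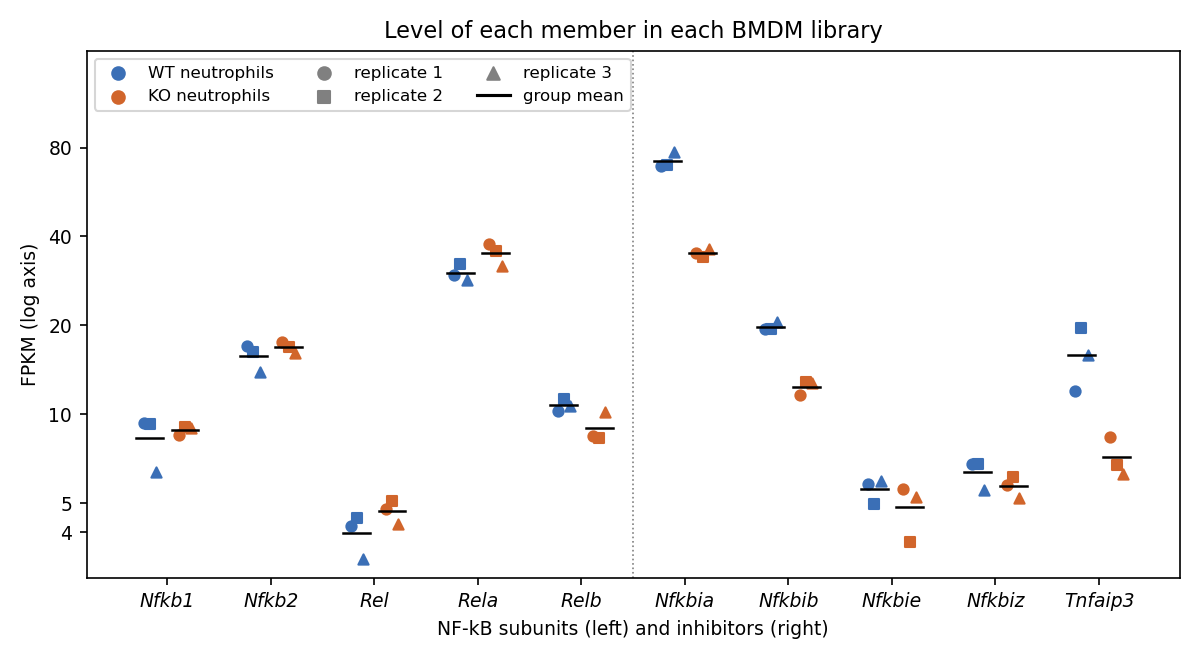
FPKM (log axis) of each NF-kB subunit and inhibitor in each BMDM library, co-cultured with WT (blue) or KO (orange) neutrophils, with the marker shape giving the replicate number and the black bar the group mean (n = 3). The KO libraries lie below all WT libraries for *Nfkbia*, *Nfkbib*, *Tnfaip3* and, by a small margin, *Relb*, while the groups overlap for the other 6 genes.

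The comparison between the groups asks whether the levels of these transcripts differed between the libraries labelled KO and those labelled WT. The transcripts of 3 inhibitors, *Nfkbia*, *Nfkbib* and *Tnfaip3*, were lower with KO neutrophils, while none of the 5 subunits passed the test. Values were compared as log2(FPKM + 0.5) by limma, the p-values being adjusted after Benjamini-Hochberg across 13367 genes whose mean reached 0.5 FPKM, and all 10 members were among them. At an adjusted p-value under 0.05, 3 of 10 members were lower and 0 higher, against 10.5% lower and 27.1% higher among all genes tested and 37.6% in either direction. The median log2 change was -0.17 over the 10 members and 0.19 over all genes tested, so that values near 0.19 are those of a typical gene here. Because less RNA per cell and fewer cells of a type cannot be told apart in bulk RNA, the levels are those of the sorted population.

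*Nfkbia* (ENSMUSG00000021025, chromosome 12 from 55489410 to 55492647, minus strand, GENCODE M21 on GRCm38) encodes IkB-alpha, the inhibitor that is degraded and resynthesised most rapidly. It had 69.1, 70.0 and 77.4 FPKM in the WT libraries and 35.1, 34.1 and 36.2 FPKM in the KO libraries. All KO libraries lay below all WT libraries, and within each group the values were close together. The mean was 2.05-fold higher with WT neutrophils, with a log2 change of -1.03 (SE 0.081, limma adjusted p = 0.000163).
*Tnfaip3* (ENSMUSG00000019850, chromosome 10 from 19000910 to 19015657, minus strand) encodes A20, which removes activating ubiquitin chains from signalling proteins upstream of the IkB kinases. Its levels were 12.0, 19.6 and 15.9 FPKM in the WT libraries and 8.40, 6.77 and 6.30 FPKM in the KO libraries. The groups did not overlap, although the WT libraries were spread widely. The log2 change was -1.08 (SE 0.19, limma adjusted p = 0.00509), and it ranged from -1.25 without WT replicate 1 to -0.91 without WT replicate 2.
*Nfkbib* (ENSMUSG00000030595, chromosome 7 from 28758251 to 28767512, minus strand) encodes IkB-beta, which is degraded more slowly than IkB-alpha. It had 19.4, 19.4 and 20.6 FPKM in the WT libraries and 11.7, 12.8 and 12.8 FPKM in the KO libraries, again without overlap. The log2 change was -0.65 (SE 0.082, limma adjusted p = 0.00117), so this fall was smaller than 2-fold. The gene shares 42 exonic bases with *Sirt2* on the opposite strand, which had between 11.36 and 17.5 FPKM, and the strand used in counting is not given in the sources used here.

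The remaining inhibitors did not pass. *Nfkbie* (ENSMUSG00000023947, chromosome 17 from 45555703 to 45563169, plus strand) encodes IkB-epsilon, another cytoplasmic inhibitor. It had 5.80, 4.99 and 5.95 FPKM in the WT libraries and 5.58, 3.70 and 5.27 FPKM in the KO libraries, and the groups overlapped. Its log2 change was -0.20 with a 95% interval from -0.58 to 0.19 (limma adjusted p = 0.372). *Nfkbiz* (ENSMUSG00000035356, chromosome 16 from 55811375 to 55838899, minus strand) encodes IkB-zeta, an atypical nuclear member that also acts as a co-activator of secondary response genes such as *Il6*. It had 6.80, 6.80 and 5.55 FPKM in the WT libraries and 5.76, 6.13 and 5.23 FPKM in the KO libraries. The log2 change was -0.15 with a 95% interval from -0.42 to 0.13 (limma adjusted p = 0.357), which leaves room for a fall of up to that lower bound.

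Among the subunits, *Rela* (ENSMUSG00000024927, chromosome 19 from 5637483 to 5648130, plus strand) encodes RelA, the main transactivating partner of the classical dimer. It had 29.6, 32.4 and 28.4 FPKM in the WT libraries and 37.7, 35.6 and 31.9 FPKM in the KO libraries, and WT replicate 2 lay above KO replicate 3. The log2 change was 0.22 with a 95% interval from -0.014 to 0.45 (limma adjusted p = 0.124), close to the median of all genes. *Nfkb1* (ENSMUSG00000028163, chromosome 3 from 135584655 to 135691547, minus strand) encodes the precursor of the DNA-binding partner of RelA. It had 9.35, 9.26 and 6.37 FPKM in the WT libraries and 8.49, 9.04 and 9.03 FPKM in the KO libraries. WT replicate 3 was the low value, and the log2 change of 0.10 (95% interval -0.26 to 0.47, limma adjusted p = 0.633) became -0.069 without it.
*Rel* (ENSMUSG00000020275, chromosome 11 from 23736847 to 23770970, minus strand) encodes c-Rel, which in macrophages takes part in the induction of *Il12b*. It had 4.19, 4.46 and 3.23 FPKM in the WT libraries and 4.80, 5.09 and 4.26 FPKM in the KO libraries, with a log2 change of 0.23 (95% interval -0.093 to 0.56, limma adjusted p = 0.224).
*Nfkb2* and *Relb* form the dimer of the non-canonical pathway. *Nfkb2* (ENSMUSG00000025225, chromosome 19 from 46304320 to 46312385, plus strand) had 17.03, 16.3 and 13.9 FPKM in the WT libraries and 17.6, 16.9 and 16.1 FPKM in the KO libraries. Its groups overlapped, with a log2 change of 0.098 (95% interval -0.14 to 0.34, limma adjusted p = 0.48), and it shares 531 exonic bases with the long non-coding gene *AC114539.1* (2.66 to 4.57 FPKM) on the opposite strand. *Relb* (ENSMUSG00000002983, chromosome 7 from 19606217 to 19629438, minus strand) had 10.3, 11.3 and 10.7 FPKM in the WT libraries and 8.46, 8.31 and 10.2 FPKM in the KO libraries. It was the subunit whose groups did not overlap, KO replicate 3 lying just under the lowest WT library, and its log2 change of -0.25 (95% interval -0.50 to 0.00079, limma adjusted p = 0.107) did not pass. Without KO replicate 3 the adjusted p-value from limma was 0.0477.

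Counted by ranges, the KO libraries lay below all WT libraries in 4 of 10 members (*Relb*, *Nfkbia*, *Nfkbib* and *Tnfaip3*), as in 14.4% of all genes tested, and above all WT libraries in 0 of 10, as in 37.5% of all genes. At the threshold of the study (fold change over 2 and unadjusted p-value under 0.05), 2 of 10 members, *Nfkbia* and *Tnfaip3*, were lower in limma, against 4.43% of all genes, and 0 were higher, against 6.68%. Both stood just past a fold of 2, and the count was 1 without WT replicate 2, without WT replicate 3 or without KO replicate 3.
With median-of-ratios scaling the median of all genes went from 0.19 to -0.0018, and 5 of 10 members passed as lower against 16.6% of all genes, 0 being higher against 16.1%. *Relb* and *Nfkbiz* were the members gained, with log2 changes of -0.45 and -0.35 (limma adjusted p = 0.0188 and 0.0498). *Rela* then stood at 0.0031, and *Nfkb1* and *Nfkb2* turned to -0.10 and -0.11, so no direction is given for these subunits. *Nfkbia*, *Nfkbib* and *Tnfaip3* stood at -1.24, -0.86 and -1.28 with this scaling.

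**Figure D3:**
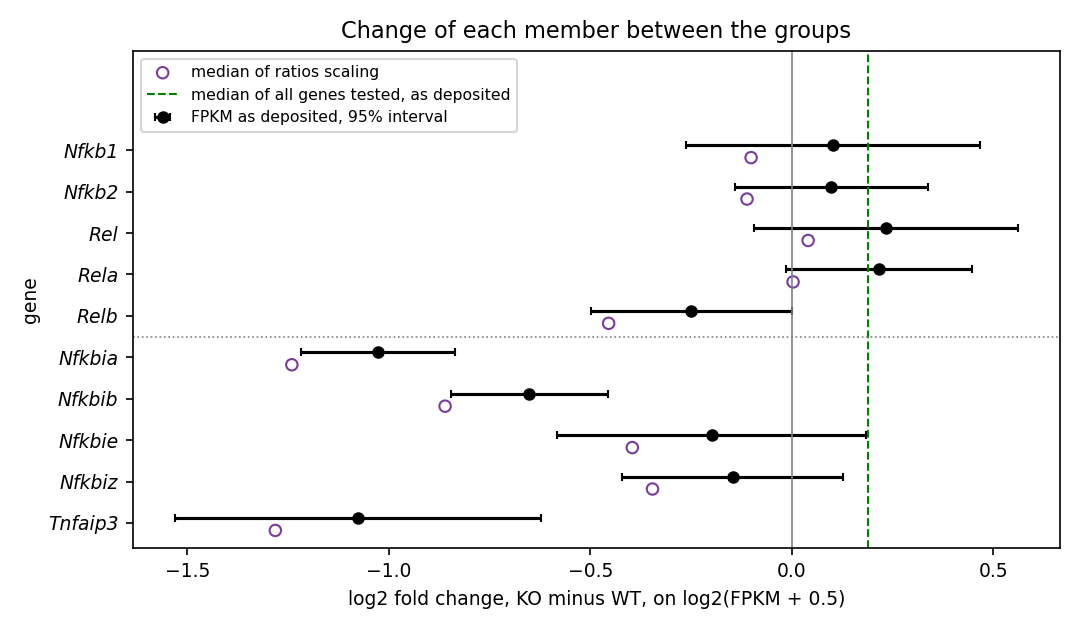
Log2 fold change of each member, KO minus WT, from limma on log2(FPKM + 0.5), as deposited with its 95% interval (filled points) and with median-of-ratios scaling (open points, n = 3 libraries per group). The dashed line is the median of all genes tested (0.19). The intervals of *Nfkbia*, *Nfkbib* and *Tnfaip3* lie wholly left of 0, and the other intervals reach 0. The points of *Relb*, *Nfkbie* and *Nfkbiz* also lie left of 0 under both scalings.

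Ratios between members within one library do not depend on the scaling between libraries, and 8 pairs were compared. The level of *Nfkbia* relative to *Rela*, the inhibitor against its main target, was 2.34, 2.16 and 2.72 in the WT libraries and 0.930, 0.958 and 1.13 in the KO libraries. The groups did not overlap, and the difference was -1.24 on the log2 scale of (FPKM + 0.5). *Nfkbia* transcripts thus outnumbered those of *Rela* in each WT library and were about level with them in the KO libraries. *Relb* relative to *Rela* was 0.357 ± 0.0166 with WT and 0.259 ± 0.0524 with KO neutrophils (SD, n = 3 each) without overlap, a log2 difference of -0.46. *Rel* relative to *Rela* and *Nfkb2* relative to *Nfkb1* overlapped between the groups, with log2 differences of 0.018 and -0.0044.
Among the inhibitors, the level of *Tnfaip3* relative to *Nfkbia* was 0.220 ± 0.0540 with WT and 0.204 ± 0.0330 with KO neutrophils (SD, n = 3 each), and the groups overlapped. *Nfkbib*, *Nfkbie* and *Nfkbiz* were higher relative to *Nfkbia* in each KO library than in any WT library, with log2 differences of 0.38, 0.83 and 0.88. For the 5 pairs without overlap the exact permutation test (two-sided) gave p = 0.1, the smallest value that 3 libraries against 3 allow, and an adjusted p of 0.16 over the 8 pairs, so this test cannot reach 0.05. All of these pairs except *Relb* to *Rela* contain *Nfkbia*, so they are not independent of its fall. The share of other gene pairs without overlap was not computed.
As a plain sum of FPKM, the 5 subunits came to 62.7 to 73.6 in the WT libraries and 71.5 to 77.1 in the KO libraries. The sum of *Nfkbia*, *Nfkbib* and *Nfkbie* came to 94.3 to 104 in the WT libraries and 50.7 to 54.2 in the KO libraries. The inhibitor sum per subunit sum was therefore between 1.28 and 1.66 with WT neutrophils and between 0.676 and 0.759 with KO neutrophils, a description of transcripts and not of protein.

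**Figure D4:**
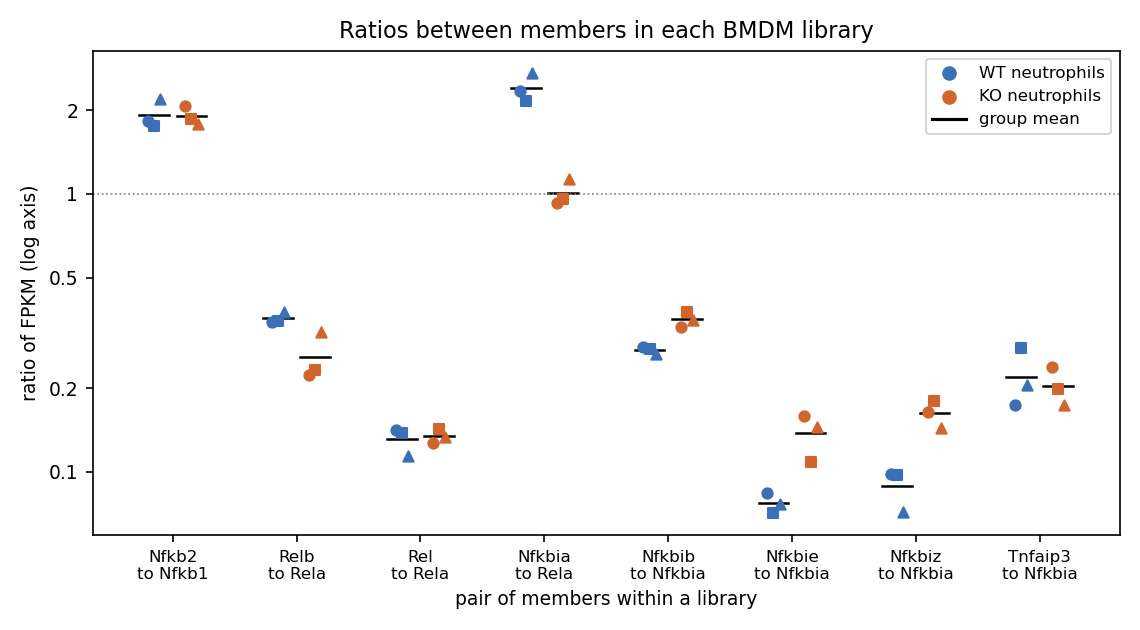
Ratio of FPKM (log axis) between pairs of members within each BMDM library, with WT (blue) and KO (orange) neutrophils, marker shapes for replicates 1 to 3 (circle, square, triangle) and black bars for the group means. The ratio of *Nfkbia* to *Rela* is between 2.16 and 2.72 in the WT libraries and between 0.930 and 1.13 in the KO libraries, while *Tnfaip3* to *Nfkbia* overlaps between the groups.

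The other genes of the pathway were described by lists drawn up from general knowledge, with the same limma test. These lists were drawn up with earlier results of these data known, so their counts are a description. Of 11 IkB kinases and their activators, 3 were higher and 1 was lower with KO neutrophils at an adjusted p-value under 0.05, with a median log2 change of 0.052, and the shares over all genes tested were 27.1% higher and 10.5% lower. *Map3k14*, the kinase NIK that starts the non-canonical pathway, had 2.04 ± 0.414 FPKM with WT and 4.11 ± 0.473 FPKM with KO neutrophils (SD, n = 3 each), a rise with a log2 change of 0.87 (limma adjusted p = 0.00527). *Tab2*, an adaptor of the kinase TAK1, rose with 0.49 and *Tank*, a binding partner of TBK1, fell with -0.28 (limma adjusted p = 0.0219 and 0.0452). *Tab2* did not pass in 7 of 18 alternative fits, and *Tank* did not pass in 9 of 18, among them each fit with one library left out. The subunits of the IkB kinase complex, named after their values were seen, did not pass. *Chuk* and *Ikbkb* stood at 0.0042 and 0.052, and the regulatory subunit *Ikbkg* stood at -0.70 (limma adjusted p = 0.159), with 8.40, 8.71 and 5.88 FPKM in the WT libraries and 8.10, 3.70 and 2.90 FPKM in the KO libraries. *Map3k14* passed in each alternative fit in which it was tested, but the counts of the list moved, and 1 gene was higher without WT replicate 1 or without any one KO library, and 0 were lower without WT replicate 1, WT replicate 2, WT replicate 3 or KO replicate 2. With median-of-ratios scaling 1 was higher and 2 were lower.

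Of 23 other IkB-like and ubiquitin-editing regulators, 3 were higher and 6 lower, with a median of -0.12, beside 27.1% higher and 10.5% lower over all genes. *Zc3h12a*, the RNase Regnase-1 that degrades inflammatory transcripts, had 22.8 ± 1.15 FPKM with WT and 9.38 ± 0.711 FPKM with KO neutrophils (SD, n = 3 each), a fall with a log2 change of -1.24 (limma adjusted p = 0.000119). The genes of the linear ubiquitin complex LUBAC did not move together. *Rnf31*, its catalytic subunit, fell from 8.92 ± 0.307 to 4.75 ± 0.451 FPKM (log2 change -0.85, limma adjusted p = 0.000793), whereas *Rbck1* rose from 13.4 ± 0.468 to 18.1 ± 0.473 FPKM (0.41, limma adjusted p = 0.006). *Otulin*, which cleaves linear chains, rose with 0.56 (limma adjusted p = 0.0155). *Sharpin*, the third subunit, named after its values were seen, stood at -0.092 and did not pass. With median-of-ratios scaling 0 of the list were higher and 11 lower, beside 16.1% and 16.6% of all genes, *Rbck1* and *Otulin* standing at 0.21 and 0.35 without passing (limma adjusted p = 0.0835 and 0.102). Without WT replicate 1 the counts were 1 higher and 3 lower, and without KO replicate 3 again 1 was higher.

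Of 23 receptors and adaptors upstream of NF-kB, 4 were higher and 5 lower, with a median of -0.070, where 27.1% of all genes were higher and 10.5% lower. *Cd14*, the co-receptor that delivers lipopolysaccharide to TLR4, fell most, with 935, 911 and 1182 FPKM in the WT libraries and 93.7, 95.5 and 109 FPKM in the KO libraries (log2 change -3.33, limma adjusted p = 6.82e-06). *Tlr2*, a receptor for bacterial lipoproteins, fell from 115.8 ± 3.01 to 28.8 ± 1.97 FPKM (SD, n = 3 each). *Tnfrsf11a*, the receptor RANK that feeds the non-canonical pathway, rose from 6.80 ± 1.11 to 14.3 ± 1.38 FPKM (1.03, limma adjusted p = 0.0017), and *Card9*, an adaptor of C-type lectin receptors, rose with 0.64 (limma adjusted p = 0.00249). *Tlr4*, named after its values were seen, had 1.47, 1.496 and 10.8 FPKM in the WT libraries and 1.29, 11.35 and 1.35 FPKM in the KO libraries, so that its level jumped within both groups. The counts were 2 higher and 8 lower with median-of-ratios scaling, and 8 were lower without WT replicate 3.

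Of 32 well-known NF-kB target genes 31 were tested, and 6 were higher and 19 lower, with a median of -1.59, against 27.1% and 10.5% of all genes. *Ccl5* and *Cxcl10*, chemokines that also answer to interferons, fell most, with log2 changes of -5.49 and -5.01 (limma adjusted p = 1.13e-05 and 2.08e-06). *Lcn2*, an iron-sequestering protein that neutrophils also store, rose from 2.95 ± 0.355 to 16.7 ± 1.55 FPKM, and *Cd83*, an activation marker, rose from 4.08 ± 0.344 to 16.5 ± 0.553 FPKM (SD, n = 3 each). The cytokine genes *Il1b*, *Il6* and *Tnf*, named after their values were seen, were lower as well, with log2 changes of -3.11, -2.98 and -1.06 (limma adjusted p = 1.27e-05, 2.06e-05 and 0.00051). *Nos2*, the inducible nitric oxide synthase, also named after its values were seen, had 3.94 to 6.86 FPKM in the WT libraries and was at 0 or 0.0444 FPKM in the KO libraries. *Cd40* is on this list and on that of the receptors, and *Lcn2* is also on that of the neutrophil markers. The falls of *Nfkbia*, *Nfkbib* and *Tnfaip3* (-1.03, -0.65 and -1.08) were thus smaller than the median of the targets. That difference of values was not tested, and the target list was drawn up with earlier results known. With median-of-ratios scaling 5 targets were higher and 22 lower.

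**Figure D5:**
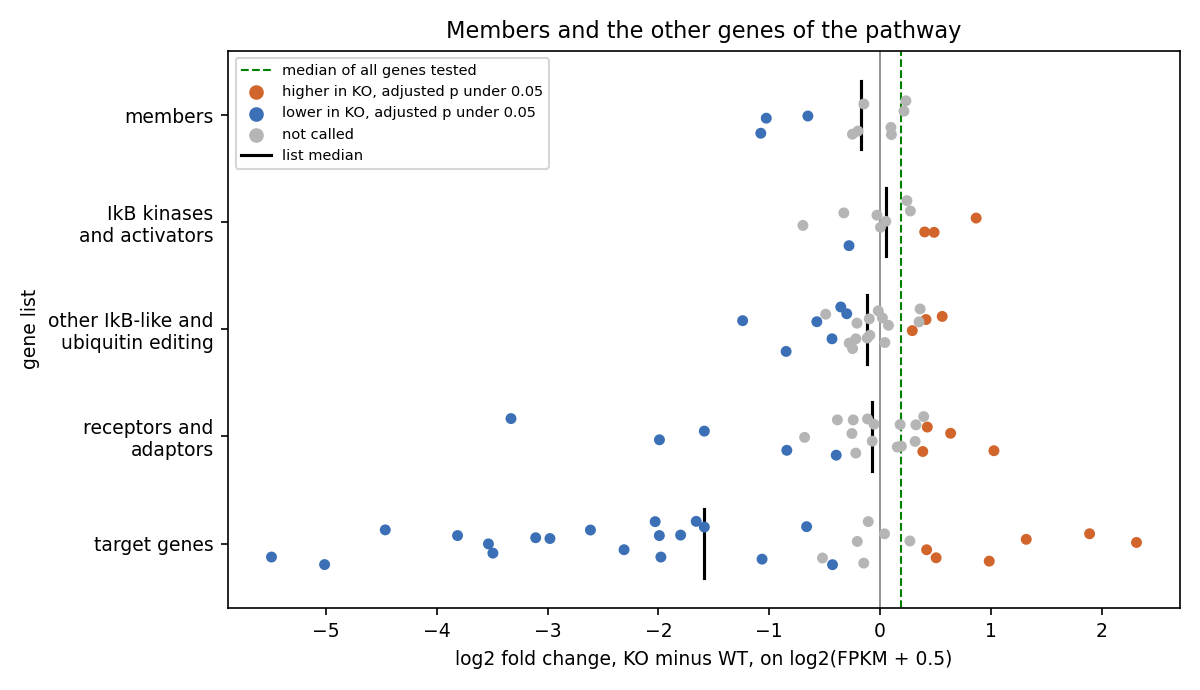
Log2 fold change, KO minus WT, of each tested gene of the member set and of 4 lists of pathway genes, coloured by whether limma called it at an adjusted p-value under 0.05 (orange higher, blue lower, grey not called), with the list median as a black bar. The dashed line is the median of all genes tested (0.19). The targets have a median of -1.59, while the medians of the other 3 pathway lists lie between -0.12 and 0.052.

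By the likeness of their log2 values over the 6 libraries, the genes nearest to *Nfkbia* among those averaging 5 FPKM or more were *Hilpda*, *Gsr* and *Glrx* (Pearson r between 0.9996 and 0.9997). Of these *Gsr*, glutathione reductase, stood at 83.3 ± 6.06 FPKM with WT and 41.3 ± 1.39 FPKM with KO neutrophils, and *Hilpda*, a hypoxia-inducible lipid droplet protein, at 97.6 ± 15.9 and 14.3 ± 1.67 FPKM (SD, n = 3 each). Nearest to *Tnfaip3* were *Zfp52*, *Acsl1* and *Cxcr4* (r between 0.9779 and 0.979), and nearest to *Nfkb1* were *Sar1a*, *Dhx37* and *Ppig* (r between 0.9865 and 0.994). These correlations are across 6 libraries that share their group difference, and for *Nfkb1* they follow the low value of WT replicate 3.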

How the data were processed

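RNA-seq of 6 BMDM libraries was analysed, 3 per group, with groups taken from the sample titles. The table deposited by the authors holds FPKM values of 55335 mouse Ensembl identifiers in each library, 55154 of which matched GENCODE M21 (GRCm38), used here for symbols and positions. The submitters' processing notes name fastp 0.17.1, HISAT2 2.1.0, DESeq2 1.18.1 and R 3.4.3; the genome build and the counting tool are not given in the sources used here. The labels and the methods name different extraction reagents, library kits and sequencers. FPKM carries no counts. In genes with 1 transcript the most frequent small value of FPKM times length implied about 17600000 to 20200000 fragments per library, but only 39.7% to 43.9% of low values came out whole to within 0.1, so no count test was run.

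Values were tested as log2(FPKM + 0.5), a scale that understates changes of low genes, with limma 3.58.1 in R 4.3.3 (trend, two-sided, no covariates) for 13367 genes whose mean reached 0.5 FPKM. Ratios were compared by exact permutation with scipy 1.17.1. On simulated libraries 44 of 50 genes lowered 4-fold and 26 of 50 lowered 2-fold were recovered among 13367, with 7 false calls. Only 50 genes per fold were changed there, whereas 5027 genes were called in the real libraries. The adjustment was therefore stricter in the simulation, and its recovery does not give the power in these data. From each pathway list the text names the 2 largest rises and 2 largest falls with an adjusted p-value under 0.05, and for 3 members the 3 genes of highest Pearson r among those that reach 5 FPKM on average, clone names left out. The members and lists were chosen with earlier results of these data known. Alternatives were other pseudocounts, filters, scalings and variance models, the replicate number as a block, and each library left out. Leaving out replicate 3 of both groups was chosen after seeing the data.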

Additional observations from a re-analysis of the deposited data

How the results depend on the processing

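*Nfkbia*, *Nfkbib* and *Tnfaip3* passed the limma test as lower in all 18 alternative fits, with log2 changes from -1.24 to -0.98, -0.86 to -0.61 and -1.28 to -0.91. With median-of-ratios scaling *Nfkb1* turned to -0.10, *Nfkb2* to -0.11, *Relb* passed at -0.45 and *Nfkbiz* at -0.35, and 5 members were lower. *Relb* also passed with upper-quartile scaling at -0.33 and quantile normalization at -0.36, where *Nfkb1* stood at -0.038. The cause was not tested.

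With one library left out, *Nfkb1* lay between -0.069 and 0.19, *Rela* between 0.16 and 0.28 and *Relb* between -0.34 and -0.20. In these fits 3 to 4 members passed as lower, 1 to 2 of them at a fold over 2. Over all 13321 to 13469 genes tested in them, 2420 to 4259 were higher and 1059 to 1707 lower. The share of all genes at a fold over 2 was not computed for these fits. Of the lists, 1 to 3 kinases were higher and 0 to 1 lower, 1 to 3 regulators higher and 3 to 7 lower, 3 to 5 receptors higher and 4 to 8 lower. The ratio differences lay between -0.064 and 0.084 for *Nfkb2* to *Nfkb1*, between -0.065 and 0.071 for *Rel* to *Rela* and between -0.20 and 0.13 for *Tnfaip3* to *Nfkbia*, and *Rel* to *Rela* was -0.0018 with a pseudocount of 1. Without replicate 3 of both groups *Nfkb1* was -0.082, *Rela* passed at 0.24 and *Relb* at -0.34. Thus 1 member was higher, 4 passed as lower and 0 were lower at a fold over 2. Of all 13484 genes tested in that fit, 4515 were higher and 1954 lower. In the lists 2 kinases and 9 regulators were lower and 8 receptors higher.

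With median-of-ratios scaling 1 kinase was higher and 2 lower, 0 regulators higher and 11 lower, 2 receptors higher and 8 lower. With upper-quartile scaling 1 kinase was higher and 2 lower, and with quantile normalization 2 kinases and 11 regulators were lower. Without a filter, and in limma without trend, 0 kinases were lower, and in genes averaging 5 FPKM or more, where fewer genes were tested, 2 kinases, 3 receptors and 12 targets were lower and *Rel* was not tested. With the replicate number as a block 2 kinases were lower and no member changed its call. Same-numbered libraries correlated in their deviations at 0.116, 0.036 and 0.264, and not every library correlated best with its own number, so the numbers were not taken as pairs. Over all genes 3619 were higher and 1408 lower as reported, 2145 and 2222 with median-of-ratios scaling, and 1756 and 983 in genes averaging 5 FPKM or more. Depth is known only roughly, and for *Nfkbie* and *Rel* these libraries do not exclude changes within the intervals given.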
